A study of Rattus norvegicus with 6 samples.

Results

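The Wnt ligands, their Frizzled and Lrp receptors and the modulators and nuclear effectors of the pathway were followed in crushed rat sciatic nerve. The members were chosen by name, with earlier results of these data known. They were every Wnt, Fzd, Sfrp or Dkk gene with a number, plus Lrp5, Lrp6, Wif1, Frzb, Ctnnb1, Lef1, Tcf7, Tcf7l2, Axin2 and Rnf43. This gave 47 entries with 46 symbols, since the symbol Dkk1 stands on 2 gene identifiers, among the 30957 genes of the mRNA table. Znrf3, which the same choice includes, was not analysed here. By role the entries were 19 ligands, 11 receptors, 11 secreted antagonists, 4 transcription genes and 2 feedback inhibitors.

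Sciatic nerve RNA came from 1-month-old Sprague-Dawley rats in 3 groups of 2 rats. The control group is labelled as normal, and the methods of the study describe the same operation without the clamp. The D4 and D7 groups were sampled 4 and 7 days after the left nerve was crushed with forceps. Libraries are named a and b in every group, with 1 rat each, and the sources used here name no tie between rats that share a letter. The nerve was sequenced whole, so every value is an average over Schwann cells, fibroblasts, perineurial cells, vessels, immune cells and fat, and fewer cells of a type cannot be told apart from less RNA per cell.

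Wnt proteins are secreted lipid-modified ligands that bind a Frizzled receptor together with Lrp5 or Lrp6. In the canonical branch this protects beta-catenin from destruction, and beta-catenin then enters the nucleus and acts with the TCF/LEF factors. Other branches signal through Frizzled without beta-catenin and control cell polarity and movement. In peripheral nerve the pathway is known for roles in Schwann cell proliferation and myelin gene expression.

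The mRNA libraries held 18727255 to 25350886 counted fragments, and the 10 most abundant genes took 16.1% to 17.6% of them in control and 8.55% to 9.41% after the crush. Markers of the Schwann cell lineage were present in all groups, with 4 of the 5 listed genes in the table (Foxd3 not analysed here) and a summed level of 2780 to 3364 normalized CPM (counts scaled to the library size) in control, 2805 to 3038 on D4 and 3099 to 3722 on D7. This sum joined genes that moved in opposite directions. Mean S100b fell from 1969 CPM in control to 1121 (D4) and 1010 (D7). Mean Erbb3 rose from 609.4 CPM to 1333 (D4) and 1655 (D7). Erbb3 was called higher in both comparisons with control, while S100b, Sox10 and Cdh19 were called in neither. The 2 D7 libraries stood apart in fat genes and in some fibroblast genes. Adipoq, which encodes the fat hormone adiponectin, was at 2.3 CPM in D7 a and at 184.6 in D7 b, and Dpt, a fibroblast gene for the matrix protein dermatopontin, was at 4.7 and 33.35 CPM. The other 5 fibroblast markers differed less, Pdgfra, Col1a1, Lum and Dcn by 1.08-fold to 1.16-fold and Pi16 by 1.86-fold, and all 6 summed to 13940 CPM in D7 a and 15680 in D7 b. The macrophage markers, 5 of 5 called higher on both days, summed to 245.3 to 296.4 CPM in control, 920.5 to 946.7 on D4 and 617.9 to 755.6 on D7, and their part in the members' values was not tested. In control b the 5 pericyte and smooth muscle genes summed to 4787 CPM against 782.7 in control a. Most of that gap came from Acta2, at 240.6 CPM in control a and 1722 in control b, and Myh11, at 298.2 and 2622. Rgs5, Abcc9 and Kcnj8 differed less, at 105.7 and 178.2, 123.2 and 241.3, and 14.9 and 23.9 CPM.

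Of the 47 entries, 37 had enough counts to be tested, among 15195 genes tested in all. A gene was called where edgeR's quasi-likelihood test gave a Benjamini-Hochberg adjusted p below 0.05 over all tested genes and a fold change of at least 2. On D4, 8 of the 37 tested members were called, 3 higher and 5 lower than control, which is 21.6% of them. Over all tested genes 21.9% were called at D4, 11.2% higher and 10.7% lower. On D7, 8 of 37 were again called, 4 higher and 4 lower, against 18.8% of all tested genes, 9.83% higher and 9.02% lower. The share of members called was thus near that of the whole table on D4 and D7. Between D7 and D4, 0 of 37 members were called by edgeR and 0 by DESeq2, with 2.18% of all tested genes called, and 7 members had an unadjusted p under 0.05 in edgeR with a smallest adjusted p of 0.104.

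On both days 7 members were called, all 7 in the same direction: Wnt10b, Wnt11 and Fzd2 were higher and Wnt5a, Fzd4, Sfrp5 and Rnf43 lower. The other two calls were Fzd9, lower on D4, and Tcf7, higher on D7. The D4 and D7 comparisons share the control libraries. The median log2 fold change of the tested members was -0.33 on D4 and -0.49 on D7, beside -0.04 and 0.01 for all tested genes. The D4 count fell to 5 without control b, to 4 without D4 a and to 4 without D4 b. On D7 it was 5 without D7 a and 15 without D7 b. With library totals in place of TMM scaling factors the median of all genes moved to 0.25 on D4 and 0.31 on D7, and the called members split into 5 higher and 3 lower on D4 and 6 higher and 2 lower on D7, 8 on each day of which 6 were shared with the calls above. Fzd4 and Fzd9 on D4 and Wnt5a and Rnf43 on D7 were then not called, and Tcf7 and Wnt16 on D4 and Dkk3 and Wnt16 on D7 were.

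**Figure D1:**
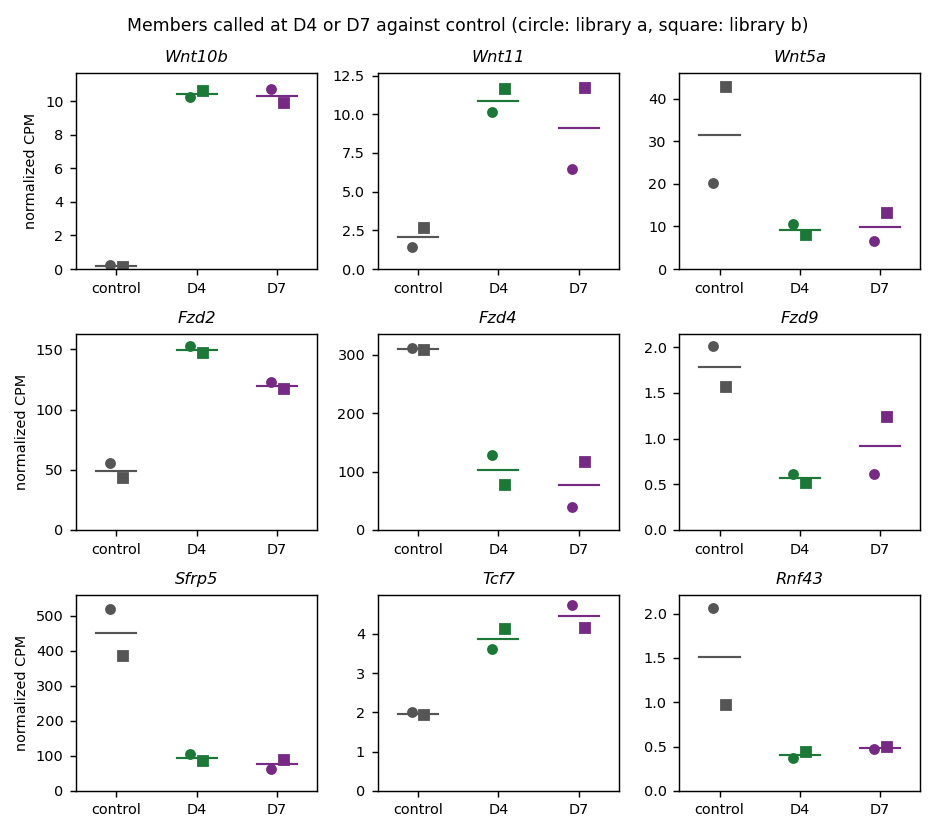
Normalized CPM of the 9 members called on D4 or D7 against control, with 1 panel per gene, the 3 groups on the horizontal axis, a circle for library a, a square for library b and a line for the mean of the 2. Wnt10b was at 0.26 and 0.12 CPM in control and near 10 in the 4 injured libraries, while Sfrp5 was at 518.6 and 384.5 CPM in control and at 104.1 or less in the injured libraries.

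RefSeq promoters on the GRCr8 assembly were found for 33 of the 46 symbols and are given here as the 250 bases before the start of transcription, since the members include both targets and effectors of TCF/LEF factors. GRCr8 is a later assembly than the Rnor_6.0 build of the count tables, and positions on the 2 builds do not correspond. The TCF/LEF words CTTTGAA and CTTTGAT were searched on both strands and stood in 3 of the 33 windows (9.09%), those of Axin2, Dkk1 and Wnt8a, against 7.58% of 27457 promoters of the same length. The AP-1 word TGACTCA stood in 2 windows (6.06%), at 190 bases before the start of Lef1 and 249 before that of Wnt16, against 3.98% of all. Of the 9 called members 7 had a promoter in the table, and 0 of these 7 held either word. The window of Axin2, chr10:94398535-94398784 on the plus strand, is shown because it is the member window with 2 TCF/LEF words, 232 and 132 bases before the start, in capitals. The windows of Wnt11, chr1:162549110-162549359 on the plus strand, and Sfrp5, chr1:250960513-250960762 on the minus strand, belong to a member that rose and to one that fell on both days, and hold neither word. All 3 run 5′ to 3′ along the gene.
Axin2: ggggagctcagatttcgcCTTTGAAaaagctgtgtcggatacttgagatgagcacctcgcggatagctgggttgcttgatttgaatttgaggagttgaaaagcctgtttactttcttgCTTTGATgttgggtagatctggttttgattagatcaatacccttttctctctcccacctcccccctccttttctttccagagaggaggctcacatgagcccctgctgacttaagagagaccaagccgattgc
Wnt11: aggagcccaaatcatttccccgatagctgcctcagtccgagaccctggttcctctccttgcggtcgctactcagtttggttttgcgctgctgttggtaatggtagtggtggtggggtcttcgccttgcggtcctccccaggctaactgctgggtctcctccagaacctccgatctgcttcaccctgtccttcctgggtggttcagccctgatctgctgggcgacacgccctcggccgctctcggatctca
Sfrp5: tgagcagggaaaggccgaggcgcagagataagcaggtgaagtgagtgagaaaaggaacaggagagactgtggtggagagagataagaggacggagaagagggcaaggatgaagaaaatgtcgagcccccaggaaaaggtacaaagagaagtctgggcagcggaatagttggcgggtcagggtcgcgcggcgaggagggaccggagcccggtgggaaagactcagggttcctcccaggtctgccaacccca

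Among the ligands, Wnt10b and Wnt11 rose and Wnt5a fell on both days, and the other 10 of 13 tested ligands were not called. Wnt10b (ENSRNOG00000061238, chromosome 7, 140448465 to 140454268 on Rnor_6.0) encodes a canonical ligand known for restraining fat cell formation. It had 5 and 2 counts in control, 250 and 287 on D4 and 228 and 200 on D7, which are 0.258 and 0.121 CPM, 10.3 and 10.6 CPM, and 10.7 and 9.9 CPM. The 4 injured libraries lay close together and far above both controls. The log2 fold change was 5.71 with a standard error (SE) of 0.31 on D4 (adjusted p = 0.000148) and 5.69 with an SE of 0.31 on D7 (adjusted p = 0.000302). Its size rests on the few control counts. Wnt10b was not among the genes with at least 10 counts in every library and was called under all 14 alternatives that could test it, on each day.

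Wnt1, the gene next to Wnt10b at a distance of 10.7 kb, had 2 counts in control a, 2 in D7 a and 0 in the other libraries, and could not be tested. Wnt11 (ENSRNOG00000015982, chromosome 1, 163797660 to 163813756) encodes a ligand known mainly for beta-catenin independent signalling. It was at 1.44 and 2.65 CPM in control, 10.1 and 11.6 on D4 and 6.48 and 11.7 on D7. All injured libraries were above both controls, and D7 a was the lowest of the 4. The log2 fold change was 2.42 (SE 0.40, adjusted p = 0.00472) on D4 and 2.16 (SE 0.40, adjusted p = 0.00901) on D7.

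Wnt5a (ENSRNOG00000015618, chromosome 16, 4469468 to 4489860), the prototype ligand of the beta-catenin independent branch, went the other way. It was at 20.3 and 42.8 CPM in control, 10.6 and 7.94 on D4 and 6.48 and 13.2 on D7. Control did not overlap with either injured group, but the 2 controls differed by 2.11-fold and the 2 D7 libraries by 2.04-fold. Log2 fold changes were -1.76 on D4 (SE 0.46, adjusted p = 0.0239) and -1.68 on D7 (SE 0.46, adjusted p = 0.0328). Without control b, the library with the high smooth muscle sum, they were -1.13 (adjusted p = 0.0913) and -1.05 (adjusted p = 0.122). The D4 call was also lost without D4 a (adjusted p = 0.0834) and without D4 b (adjusted p = 0.135). The D7 call was lost without D4 a (adjusted p = 0.0613), D4 b (adjusted p = 0.0615) or D7 a (adjusted p = 0.125), and also with library totals (adjusted p = 0.0522). The part of smooth muscle RNA in the Wnt5a values was not tested.

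Compared per length as FPKM (fragments scaled to gene length and library size), Wnt6 and Wnt2b had the highest means over the 6 libraries, 9.27 and 7.98 FPKM, and Wnt10b, Wnt5a and Wnt11 followed at 3.33, 3.21 and 2.99. In control the group means were 8.55 FPKM for Wnt6, 7.45 for Wnt2b, 5.54 for Wnt5a, 0.695 for Wnt11 and 0.0736 for Wnt10b. On D4 they were 6.33 for Wnt6, 9.06 for Wnt2b, 1.98 for Wnt5a, 4.50 for Wnt11 and 4.98 for Wnt10b. Wnt10b thus passed from the lowest control mean of the 13 tested ligands, with Wnt4 next at 0.076 FPKM and overlapping it, to a D4 mean above that of every ligand but Wnt2b and Wnt6. On D4 its libraries stood just above those of Wnt11, at 4.90 and 5.07 against 4.19 and 4.81 FPKM. FPKM follow each library's total, so these group means do not measure change. In normalized CPM Wnt2b was at 18.6 and 11.8 in control, 14.9 and 15.3 on D4 and 11.6 and 13.0 on D7. Its log2 fold changes were -0.01 (adjusted p = 0.965) on D4 and -0.31 (adjusted p = 0.328) on D7.

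Wnt6 was at 21.0 and 19.3 CPM in control, 11.9 and 12.5 on D4 and 33.4 and 16.4 on D7. Both D4 libraries were below both controls, and the D7 libraries lay on either side of them. Its log2 fold changes were -0.72 (SE 0.32, adjusted p = 0.111) on D4 and 0.31 (SE 0.31, adjusted p = 0.469) on D7. Its neighbour Wnt10a, 6.4 kb away on chromosome 9, had log2 fold changes of -0.72 and 0.41 on D4 and D7 at a mean level of only 0.388 FPKM, and was not called. Wnt16 was at 2.73 and 2.53 CPM in control, 4.35 and 5.84 on D4 and 6.20 and 4.11 on D7, and passed the adjusted p but not the 2-fold limit, with log2 fold changes of 0.95 (adjusted p = 0.0439) and 0.97 (adjusted p = 0.0479).

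The remaining tested ligands were Wnt2, Wnt4, Wnt5b, Wnt7b, Wnt9a and Wnt9b, none above a mean of 2.42 FPKM, with log2 fold changes from -1.64 to 1.21 on D4 and from -1.32 to 1.296 on D7 and no adjusted p under 0.142. Wnt2 was at 1.65 and 1.39 CPM in control, 4.97 and 2.11 on D4 and 0.657 and 1.73 on D7, so that D4 was above control and D7 spread to both sides. Wnt4 was at 0.309 and 0.844 CPM in control and 1.22 and 1.58 on D7, with a log2 fold change of 1.296 and an SE of 0.67 (adjusted p = 0.176). Wnt3 had 4 counts in D4 a, 7 in D7 a, 4 in D7 b and 0 elsewhere, and Wnt8a had 2 in D4 b alone. Wnt3a, Wnt7a and Wnt8b had 0 counts in all 6 libraries.

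Among the receptors Fzd2 rose and Fzd4 fell on both days, and Fzd9 fell on D4. Fzd2 (ENSRNOG00000021962, chromosome 10, 90550147 to 90552057) was at 55.8 and 42.9 CPM in control, 152.9 and 146.8 on D4 and 122.9 and 117.1 on D7. Replicates differed by at most 1.301-fold, and all injured libraries were above both controls. Log2 fold changes were 1.60 (SE 0.14, adjusted p = 0.000457) on D4 and 1.28 (SE 0.14, adjusted p = 0.00135) on D7. Compared per length, its mean FPKM was the highest of the receptors on D4 (83.7) and D7 (67.3).

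Fzd4 (ENSRNOG00000016848, chromosome 1, 153589471 to 153598375) encodes a receptor known for its part in vessel growth, where it also binds norrin. It was at 311.1 and 308.5 CPM in control, 128.7 and 77.6 on D4 and 38.8 and 115.9 on D7. All injured libraries lay well below the controls and D7 a was the lowest. Log2 fold changes were -1.59 (SE 0.50, adjusted p = 0.0448) on D4 and -2.003 (SE 0.51, adjusted p = 0.0258) on D7. The lncRNA transcript NONRATT000935.2 lies inside the Fzd4 span. It had 237 and 5 counts in control, 5 and 994 on D4 and 319 and 1066 on D7. Whether fragments were divided between this transcript and Fzd4 was not tested. The endothelial markers, 4 of 5 in the table (Pecam1 not analysed here) and none at 0, summed to 454.6 and 515.2 CPM in control, 268.5 to 360.3 on D4 and 180.5 and 266.8 on D7, in the same order of groups as Fzd4. Of these 4, 2 were called lower on D4 and 3 on D7. Tie1 was called on neither day and did not follow that order, with means of 101.7 CPM in control, 107.3 on D4 and 71.6 on D7. The fat markers, 5 of 5 in the table and none at 0, summed to 1080 to 1315 CPM in control, 153.5 to 308.9 on D4 and 7.09 in D7 a against 438.3 in D7 b. Of these 5 fat markers, 0 were called on D4 and 0 on D7. The part of either cell type in the Fzd4 values was not tested. The D4 call was lost without any of the 4 libraries compared (adjusted p from 0.0899 to 0.21) and with library totals (adjusted p = 0.076), and the D7 call without control a (adjusted p = 0.0632) or control b (adjusted p = 0.0637), with log2 values of -1.997 and -2.012 in those fits.

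Fzd9 was low, at 39 and 26 counts in control, 15 and 14 on D4 and 13 and 25 on D7. In CPM the controls were 2.01 and 1.57, the D4 libraries 0.616 and 0.517 and the D7 libraries 0.61 and 1.24. It fell by 1.65 on the log2 scale on D4 (SE 0.47, adjusted p = 0.0319), and its D7 value was -0.96 (adjusted p = 0.15). The D4 call was lost without any of the 4 libraries compared, with an adjusted p of 0.12 without control a, 0.0609 without control b, 0.121 without D4 a and 0.16 without D4 b, and with library totals it was 0.0543.

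The co-receptors Lrp5 and Lrp6 passed the adjusted p on both days below the 2-fold limit. Lrp6 was at 278.9 and 302.0 CPM in control, 191.7 and 180.2 on D4 and 185.1 and 203.2 on D7, with log2 fold changes of -0.64 (SE 0.10, adjusted p = 0.00348) and -0.58 (SE 0.10, adjusted p = 0.00649). Lrp5 was at 74.2 and 103.0 CPM in control and between 42.2 and 54.0 in the injured libraries, with log2 fold changes of -0.77 (adjusted p = 0.0136) and -0.97 (adjusted p = 0.00768). With library totals both stayed below control, with adjusted p-values of 0.0315 and 0.063 for Lrp6 on D4 and D7 and 0.0679 and 0.0253 for Lrp5.

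Fzd3, a receptor known for axon guidance, was at 51.1 and 37.9 CPM in control, 47.3 and 48.3 on D4 and 75.7 and 63.1 on D7, with log2 fold changes of 0.10 (adjusted p = 0.652) and 0.64 (SE 0.17, adjusted p = 0.0275). The D7 libraries were above the other 4. Fzd1, Fzd5, Fzd6 and Fzd7 had log2 fold changes between -0.80 and 0.18 on D4 and D7, of which Fzd7 passed the adjusted p on D7 (-0.80, SE 0.24, adjusted p = 0.0444, and 0.144 on library totals). Fzd8 had 0 counts in all 6 libraries.

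**Figure D2:**
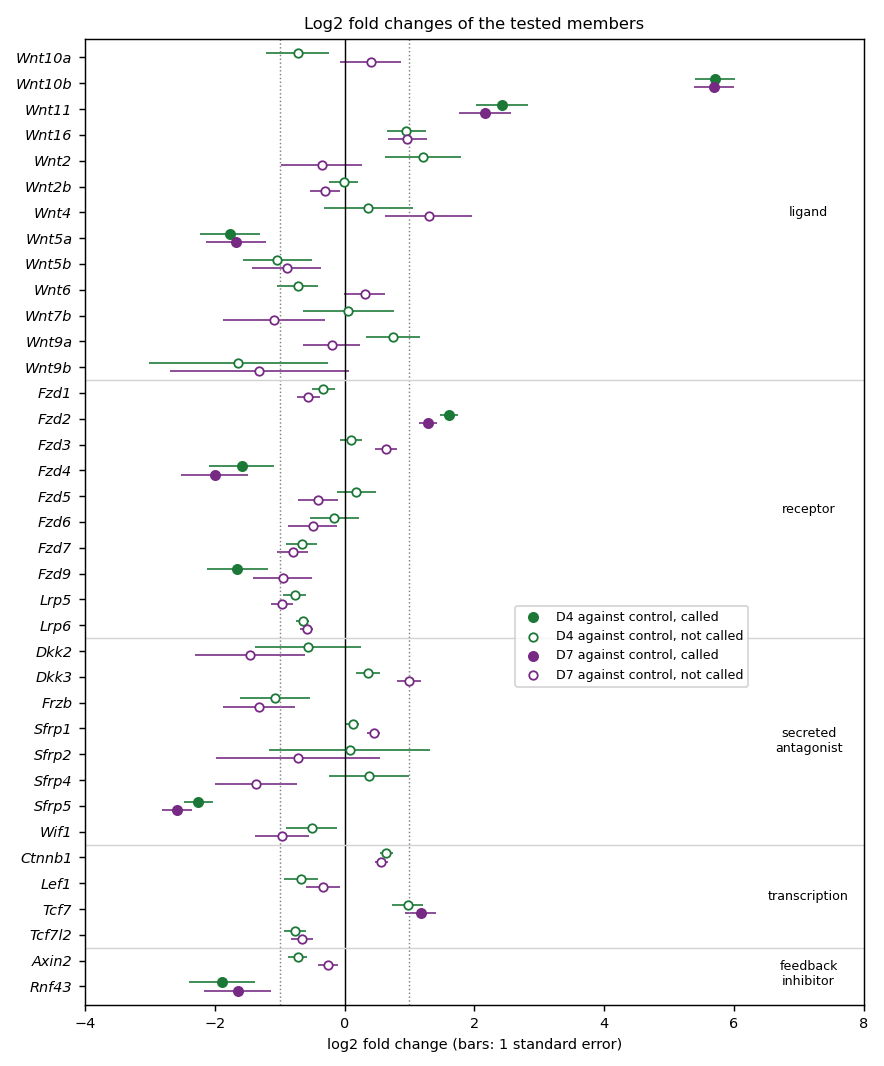
Log2 fold changes of the 37 tested members on D4 (green) and D7 (purple) against control, ordered by role, with bars of 1 SE, filled points for called values and dotted lines at the 2-fold limit. Wnt10b stands at 5.71 and 5.69, far to the right of the rest, and Wnt9b has the widest bars, with an SE of 1.38 on each day.

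Of the 8 tested secreted antagonists only Sfrp5 was called against control. Secreted frizzled-related proteins carry a Frizzled-like domain that binds Wnt ligands outside the cell, and Sfrp5 is known as a product of fat tissue. Sfrp5 (ENSRNOG00000014940, chromosome 1, 261442108 to 261446570) was at 518.6 and 384.5 CPM in control, 104.1 and 85.6 on D4 and 62.5 and 87.7 on D7. All 4 injured libraries were far below both controls. It fell by 2.25 on the log2 scale on D4 (SE 0.23, adjusted p = 0.000757) and by 2.59 on D7 (SE 0.23, adjusted p = 0.000771), and was called under all 15 alternatives on each day. Compared per length, its control mean of 198 FPKM was above that of every other tested member. The fat marker sums given with Fzd4 were also highest in control. Between the 2 D7 libraries, whose Adipoq counts were 49 and 3730, Sfrp5 differed by 1.40-fold. The 5 perineurial genes, with Lypd2 at 0 in all libraries, summed to 2255 to 2774 CPM in control, 941.2 to 968.1 on D4 and 1186 to 1530 on D7. Most of that sum was Itgb4, at 2065 and 1713 CPM in control, 623.4 and 679.2 on D4 and 1260 and 923 on D7. Cldn1 was called lower on both days, Itgb4 on D4 alone and Slc2a1 on D7 alone. Within that list Moxd1 went the other way, from 0.721 and 0 CPM in control to 1.93 and 4.58 on D4 and 6.86 and 6.83 on D7, and was called higher on both days. The part of fat and of perineurial RNA in the Sfrp5 values was not tested.

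Sfrp1 was at 84.5 and 85.4 CPM in control, 95.0 and 90.3 on D4 and 123.7 and 107.7 on D7, with log2 fold changes of 0.13 (adjusted p = 0.347) and 0.45 (SE 0.10, adjusted p = 0.0171). Dkk3, a divergent member of the Dickkopf family whose other members block Lrp5 and Lrp6, was at 40.6 and 58.3 CPM in control, 60.1 and 67.2 on D4 and 104.1 and 92.8 on D7. In both genes the D7 libraries were above the other 4. For Dkk3 the log2 fold change was 0.37 (adjusted p = 0.151) on D4 and 0.99 (SE 0.18, adjusted p = 0.00858) on D7, just under the 2-fold limit. Frzb and Wif1 were low, with log2 values of -1.08 and -0.51 on D4 and -1.32 and -0.96 on D7, none called. Dkk1, on both identifiers, and Dkk4 had 0 counts in all libraries.

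Sfrp2, Sfrp4 and Dkk2 divided the 2 D7 libraries. Sfrp2 was at 18.5 and 46.5 CPM in control, 42.3 and 26.2 on D4, 0.751 in D7 a and 38.8 in D7 b, from 16 and 785 counts on D7. Sfrp4 was at 161.1 and 140.1 CPM in control, 258.9 and 132.3 on D4 and 23.3 and 93.9 on D7. Dkk2 was at 12.3 and 29.1 CPM in control, 17.7 and 10.2 on D4 and 1.88 and 13.2 on D7. In all 3 genes D7 a was the lowest library and D7 b lay within the range of the control and D4 libraries for Sfrp2 and Dkk2 and below it for Sfrp4.

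D7 b exceeded D7 a by 51.7-fold for Sfrp2, 4.03-fold for Sfrp4 and 7.01-fold for Dkk2, and by 17.9-fold for the ligand Wnt9b, which had 3 and 51 counts. These 4 of the 37 tested members (10.8%) differed by more than 4-fold between the D7 libraries, as did 2.01% of all tested genes. Between the D4 libraries the number was 0 of 37 and between the controls 2 of 37, Wnt9b with 8 and 104 counts and Wnt7b with 19 and 4. Adipoq and Dpt were also lower in D7 a, by the values given at the start, where the other fibroblast markers differed by less than 2-fold, and the part of fat or fibroblast RNA in these members' values was not tested. None of the 4 was called on D7, where Sfrp4 had a log2 fold change of -1.36 (SE 0.63, adjusted p = 0.14). Without D7 b it was -2.69 (adjusted p = 0.0106), and Sfrp2, Sfrp4, Dkk2 and 5 further members were then called on D7 against control, namely Frzb, Fzd7 and Lrp5 lower and Dkk3 and Wnt16 higher.

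**Figure D3:**
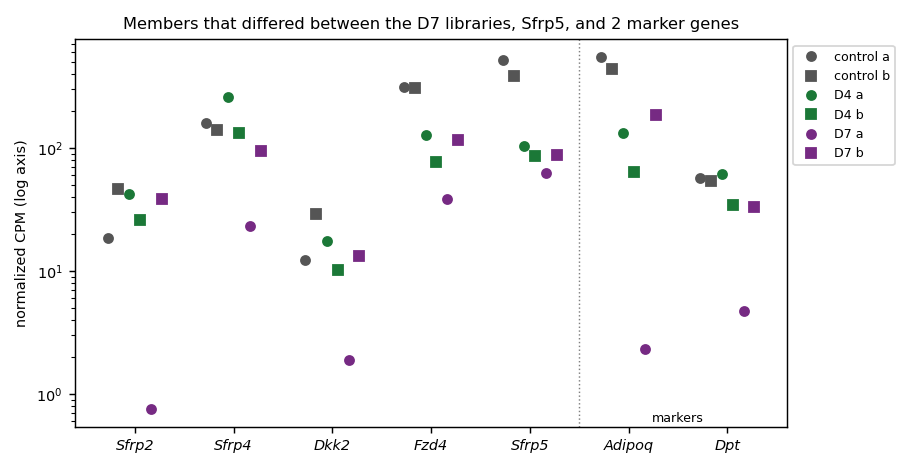
Normalized CPM on a log axis for Sfrp2, Sfrp4, Dkk2, Fzd4 and Sfrp5 and, right of the dotted line, for the marker genes Adipoq and Dpt, with circles for library a and squares for library b of each group. D7 a lies lowest in each of the 7 genes, at 0.751 CPM for Sfrp2 and 2.3 CPM for Adipoq, and differs from D7 b by 1.40-fold for Sfrp5.

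Ctnnb1, which encodes beta-catenin, was the most abundant tested member with a mean of 241.5 FPKM over the 6 libraries. It was at 444.5 and 400.2 CPM in control, 659.7 and 659.4 on D4 and 643.5 and 604.8 on D7. All injured libraries were above both controls. Its log2 fold changes of 0.64 (SE 0.10, adjusted p = 0.00371) and 0.56 (SE 0.10, adjusted p = 0.00764) were below the 2-fold limit. RNA levels do not show the amount of beta-catenin protein, through which the pathway is known to act.

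Tcf7 (ENSRNOG00000005872, chromosome 10, 37617279 to 37645802) encodes a TCF/LEF factor that is also abundant in T cells. It was at 2.01 and 1.93 CPM in control, 3.61 and 4.14 on D4 and 4.74 and 4.16 on D7. All injured libraries were above both controls. It rose by 1.17 on the log2 scale on D7 (SE 0.24, adjusted p = 0.0125), and its D4 value of 0.97 (SE 0.24, adjusted p = 0.0195) was just under the 2-fold limit. Without D7 a the D7 value was 1.10 (adjusted p = 0.057). The T cell markers, 6 of 6 in the table and none at 0 in all libraries, summed to 2.58 and 3.20 CPM in control, 3.86 and 4.80 on D4 and 15.4 and 13.5 on D7. Of the 5 tested T cell markers, 2 were called higher and 1 lower on D4, and 4 were called higher on D7. Their part in the Tcf7 values was not tested.

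Neither Tcf7l2 nor Lef1, the other TCF/LEF genes among the members, was called. Tcf7l2 was at 27.0 and 25.1 CPM in control and between 13.6 and 18.6 in the injured libraries, with log2 fold changes of -0.76 (adjusted p = 0.0152) and -0.65 (adjusted p = 0.0303), both under the 2-fold limit, and with adjusted p-values of 0.0679 and 0.143 on library totals. Lef1 had log2 values of -0.67 on D4 and -0.33 on D7, with adjusted p-values of 0.087 and 0.356.

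Axin2 and Rnf43 are both known as targets of beta-catenin that act back on the pathway, Axin2 in the destruction complex and Rnf43 by removing Frizzled from the cell surface. Axin2 was at 24.0 and 30.3 CPM in control, 15.9 and 16.9 on D4 and 24.1 and 21.3 on D7. Both D4 libraries were below both controls. On D7 library a reached the lower control and library b was below both. The log2 fold change was -0.73 (SE 0.15, adjusted p = 0.0109, and 0.0594 on library totals) on D4 and -0.25 on D7. Rnf43 had 40 and 16 counts in control, 9 and 12 on D4 and 10 and 10 on D7, which are 2.06 and 0.965 CPM, 0.369 and 0.443, and 0.47 and 0.495. It was called lower on both days, with log2 fold changes of -1.89 (SE 0.51, adjusted p = 0.0272) and -1.65 (SE 0.51, adjusted p = 0.0485), and the 2 controls differed by 2.14-fold. Without control a these values were -1.23 (adjusted p = 0.158) and -0.99 (adjusted p = 0.255). On D4 the call was also lost without D4 a (adjusted p = 0.146), D4 b (adjusted p = 0.119) or D7 a (adjusted p = 0.0509). The D7 call held in 3 of the 14 alternatives that could test Rnf43, was lost without any library except control b, and DESeq2 gave an adjusted p of 0.0732.

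**Figure D4:**
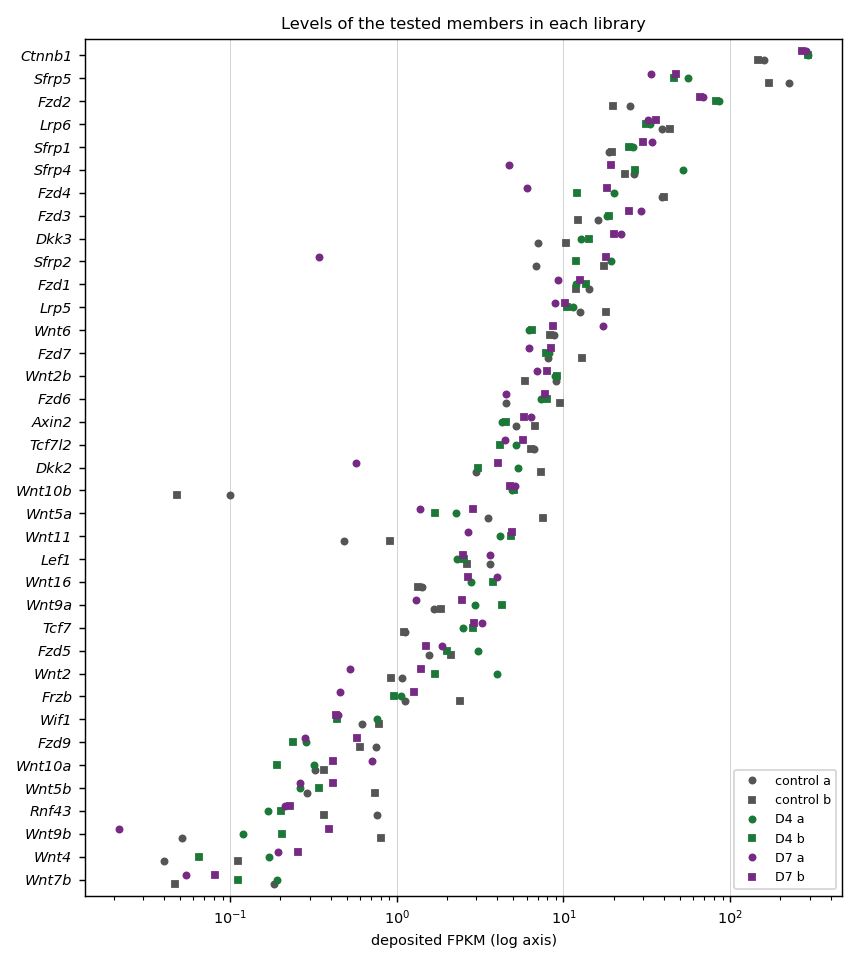
Deposited FPKM of the 37 tested members in each of the 6 libraries on a log axis, ordered from top to bottom by their mean over the libraries, with grey for control, green for D4, purple for D7, circles for library a and squares for library b. Means run from 241.5 FPKM for Ctnnb1 to 0.111 for Wnt7b, and the widest spans between libraries are those of Wnt10b, Sfrp2, Wnt9b and Dkk2.

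In level the tested members covered a wide range, with a median of 3.88 FPKM, 12 members at a mean of 10 or more and 8 below 1. Ligands held none of those 12 places. After Ctnnb1 the order was Sfrp5, Fzd2, Lrp6, Sfrp1 and Sfrp4, at means of 96.5, 57.8, 35.8, 25.4 and 25.4 FPKM, and the libraries of Sfrp1 and Sfrp4 overlapped. FPKM follow each library's total, and changes between groups were tested on the counts.

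The wider pathway was followed through 7 lists of 71 genes that are not members, of which 67 were in the table (Trabd2b, Dvl2, Axin1 and Tnks2 not analysed here) and 63 tested. Of the 63, 16 were called on D4, 7 higher and 9 lower (25.4%), and 13 on D7, 9 higher and 4 lower (20.6%), beside the 21.9% and 18.8% of all tested genes. With library totals the split was 13 higher and 6 lower on D4 and 15 higher and 3 lower on D7. Their median log2 fold change was -0.11 on D4 and 0.04 on D7. None of the 3 tested genes of Wnt secretion was called.

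Of 6 tested R-spondin and LGR genes, whose products enhance Wnt signals, Lgr5 and Lgr6 were lower on both days and none was higher. The receptor Lgr5 was at 34.3 and 27.6 CPM in control, 3.65 and 2.40 on D4 and 8.55 and 6.48 on D7. It fell by 3.36 on D4 (SE 0.27, adjusted p = 0.000358) and by 2.04 on D7 (SE 0.25, adjusted p = 0.00208) on the log2 scale. The 2 injured groups did not overlap with control or with each other. Of 11 alternative receptors and planar cell polarity genes, Vangl1 was the D4 call, with a log2 fold change of 1.07 (SE 0.14, adjusted p = 0.00205), and Ptk7, Vangl2 and Celsr2 were called higher on D7 at 1.53, 1.41 and 1.09.

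Of 11 other extracellular modulators tested, 2 were higher and 2 lower on D4, and 3 higher and 1 lower on D7. Draxin, a secreted Wnt antagonist and axon guidance protein, had 0 counts in both controls, 97 and 113 on D4 and 39 in each D7 library, at least 24.3-fold and 11.2-fold higher when control is set to 3 counts per library (adjusted p = 0.000485 and 0.00127). Cthrc1, a secreted protein known to bind Wnt and Frizzled, rose by 1.95 and 1.86 on the log2 scale. Sost, the antagonist sclerostin, had 0 counts in both controls, 3 in each D4 library and 18 and 13 in the D7 libraries b and a, at least 4.48-fold higher on that day on the same footing (adjusted p = 0.00854). Sostdc1, an antagonist of Wnt and BMP signals, was at 119.7 and 102.4 CPM in control, 11.1 and 18.1 on D4 and 129.3 and 105.7 on D7. It fell by 2.93 on D4 (SE 0.25, adjusted p = 0.000454), and its D7 value was 0.08 (adjusted p = 0.806). Tspan12, a membrane partner of Fzd4, was lower on both days, as Fzd4 was, by log2 values of -1.68 (adjusted p = 0.0301) and -1.67 (adjusted p = 0.0359).

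Of 17 Dishevelled and destruction complex genes 4 were called on D4, all lower, and 1 on D7. Dixdc1, a partner of Dishevelled, fell by 2.91 on D4 (SE 0.18, adjusted p = 0.000183) and by 1.79 on D7 (SE 0.17, adjusted p = 0.000917), and Nkd1, Apc2 and Dact3 were the other D4 calls. Of the myelin genes listed, 4 are given here, Mbp, Pmp22, Prx and Egr2. All 4 were called lower on D4 and 3 on D7, and they summed to 26150 to 39770 CPM in control, 1084 to 1110 on D4 and 3395 to 5441 on D7, lowest on D4 as Sostdc1 and Dixdc1 were. Their part in these genes' values was not tested. Of 11 nuclear partners, the corepressor Tle4 rose by 1.047 (SE 0.13, adjusted p = 0.00154) and the factor Tcf7l1 fell by 1.22 (SE 0.16, adjusted p = 0.00174) on D4, and 0 were called on D7 by edgeR at values of 0.97 and -0.98 for these 2 genes.

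Of the 4 tested genes listed as textbook targets of beta-catenin, Ccnd1, Cd44 and Tnfrsf19 were higher on both days. The remaining tested gene, Myc, was not called, at log2 values of 0.56 on D4 (adjusted p = 0.062) and 0.11 on D7 (adjusted p = 0.677). Sp5, also on that list, was too low to test. Ccnd1, which encodes cyclin D1 of the cell cycle, was at 105.7 and 146.6 CPM in control, 1482 and 1632 on D4 and 832.4 and 893.8 on D7, with log2 fold changes of 3.63 (SE 0.19, adjusted p = 0.000131) and 2.77 (SE 0.18, adjusted p = 0.000381). The 5 cell division markers summed to 33.7 and 72.1 CPM in control, 861.7 and 997.1 on D4 and 566.3 and 605.1 on D7, in the same order of groups as Ccnd1, and their part in its values was not tested. Axin2 and Rnf43, also known as targets, had the values given above and were not higher on either day.

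At 28 member loci 59 lncRNA transcripts overlapped the gene or lay within 10 kb of it, 34 of them overlapping, and 37 had enough counts to be tested. On D4, 1 of 37 was called, beside 10.1% of all tested lncRNAs, and on D7, 0 of 37 by edgeR, beside 5.79%. At an unadjusted p under 0.05 the numbers were 5 on D4 and 4 on D7, and DESeq2 called 3 and 2. The transcript called was NONRATT005417.2 (chromosome 10, 37645612 to 37646572), 961 nt long, which overlaps an end of the Tcf7 span by 191 bases. It had 1 and 1 counts in control, 16 and 23 on D4 and 1 and 1 on D7 (adjusted p = 0.0156 on D4), so it was detected mainly on D4, whereas Tcf7 was above control on both days. Its D4 call was lost without control a (adjusted p = 0.0893), control b (adjusted p = 0.0892), D4 a (adjusted p = 0.102) or D4 b (adjusted p = 0.138), and it was not among the transcripts with at least 10 counts in every library. On D7 1 transcript was called without control a, without D4 a or without D4 b. Whether reads were counted by strand is not given in the sources used here, so its reads and those of Tcf7 cannot be fully told apart.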

How the data were processed

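Sciatic nerve RNA of 6 rats was sequenced after ribosomal RNA removal. The authors mapped reads to the Ensembl rat genome (release 100, taken here as Rnor_6.0) with HISAT2 2.0.4, assembled and counted fragments with StringTie 1.3.0, and deposited raw counts and FPKM values per gene and per lncRNA transcript. The mRNA FPKM deposited by the authors follow the library totals and were used for comparing levels between genes, while changes between groups were tested on the counts. Low genes and lncRNAs were removed with filterByExpr, TMM factors (0.863 to 1.08 for mRNA) were applied, and the rest went into edgeR 4.0.16 (R 4.3.3), in 1 quasi-likelihood fit of the 6 libraries with Benjamini-Hochberg adjustment over all genes tested. Normalized CPM are counts scaled to library size with TMM. The SE of a log2 fold change is its size over the square root of F. The procedure was also run on simulated counts, with planted changes all well above the 2-fold limit, and the outcome is not given here. With 2 rats per group no sample could be judged an outlier, and the p-values measure the spread between these rats. Counting floors (3 counts per library) cover counting error only. The lncRNA libraries held 2694777 to 3043817 fragments.

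The members, gene lists and tests were chosen with earlier results of these data known. Values in every library are given for called members and for the 6 most abundant tested members not called, and for each pathway list the called gene with the largest rise and the largest fall on D4 is named. Other genes named, such as Axin2, Lef1, Lrp5, Wnt6, Wnt16, Sfrp2, Dkk2, Wnt9b, Sost, Cthrc1, Tspan12 and Nkd1, were chosen after their values were seen. The alternatives were DESeq2 1.42.0, other scaling, filters, thresholds and samples, a replicate block and leaving out each library. Promoter sequences are RefSeq's (GRCr8), with 13 of the 46 symbols unmatched. Some genes of the myelin list are not reported here.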

Additional observations from a re-analysis of the deposited data

Results flagged for a closer look

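The change between D4 and D7 was tested directly, and no member passed an adjusted p of 0.05. Among the other pathway genes 6 did (edgeR, adjusted over all genes), and these are given because the 2 days differed. Sostdc1 was higher on D7 than on D4 by 3.01 on the log2 scale (SE 0.25, adjusted p = 0.0117), with both D7 libraries in or above the control range. Nkd1, a feedback inhibitor that binds Dishevelled, was higher by 1.73 (SE 0.25, adjusted p = 0.0264), from 8.87 and 10.3 CPM on D4 to 36.2 and 27.3 on D7, beside 24.0 and 36.6 in control. Dixdc1 was higher by 1.13 (SE 0.17, adjusted p = 0.0301) and Apc2 by 1.10 (SE 0.19, adjusted p = 0.038). Lgr4 was higher by 0.55 (SE 0.11, adjusted p = 0.0474) and Ccnd1 differed by -0.85 (SE 0.17, adjusted p = 0.0493), both less than 2-fold. Of the 4 myelin genes given in the report 2 were also called higher on D7 than on D4, with sums of 1084 to 1110 CPM on D4 and 3395 to 5441 on D7, and their part in the values above was not tested.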

How the results depend on the processing

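Alternatives were tallied for the called members and the 6 most abundant tested members not called. None of their called values against control changed direction. The adjusted p alone and the test of a change above 2-fold keep the main log2 values, so direction could not change there. Of 446 such values against control, 1 per gene, day and alternative, 378 kept their direction and their side of the threshold. Of the rest, 48 were no longer called, 18 were newly called and 2 uncalled values changed sign. With the adjusted p alone 15 members were called on D4 and 17 on D7, and 37 and 34 other pathway genes. With a test of a change above 2-fold the counts were 4 and 2 members (Wnt10b and Sfrp5 on both days, Wnt11 and Fzd2 on D4) and 10 and 8 pathway genes. For the lncRNAs DESeq2 gave 3 calls on D4 and 2 on D7, and a fit of only control and D7 gave 1 on D7. Leaving out each library in turn gave 4 to 8 member calls on D4, 5 to 15 on D7 and 0 to 3 between D7 and D4, and 0 to 1 lncRNA calls on D4 and on D7. The 3 calls between D7 and D4 came without D7 b and were Sfrp2 and Sfrp4, lower, and Wnt6, higher. The lone library left in a group is then assumed to vary like those of the other groups. With the library letter as a replicate block 6 members were called on D4 (Fzd4 and Fzd9 lost), 8 on D7 (Dkk3 gained, Rnf43 lost) and 0 between D7 and D4, 16 and 13 pathway genes, and 1 and 0 lncRNAs. Over the tested mRNA genes, deviations of library a from its group mean in log2 CPM were correlated between groups. The correlations were 0.01 for control and D4, 0.20 for control and D7 and -0.13 for D4 and D7. Each group gives 1 such deviation per gene, so these values cannot settle whether a letter ties libraries together. Crossed letters for D4, chosen after seeing the data, also gave 0 calls between D7 and D4. Causes of these differences were not tested. With a biological coefficient of variation of 0.18 for mRNA and 0.40 for lncRNA and 2 rats per group, the SE of a log2 fold change against control ran from 0.099 for Lrp6 to 1.38 for Wnt9b, so a value that was not called is not shown to be unchanged.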
